A study of Homo sapiens with 6 samples.

Results

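Transcripts of 45 genes of the hypoxia response and of glycolysis were examined in heat-treated residual MHCC97H cells, an established human hepatocellular carcinoma (HCC) line with high metastatic potential. The cells had survived heating at 47 °C, a sublethal temperature that mimics the rim of an incompletely ablated tumor, and were then cultured for 24 h with 0 ng/mL POSTN (control, n = 3) or 100 ng/mL POSTN (n = 3). POSTN (periostin), a matrix protein that cells secrete and that signals through integrins, was added as the sole agent to a single cell line, without stromal cells. All 6 samples thus carried the heat treatment, and an unheated sample was not analysed here. Each RNA sample was read on 1 Affymetrix array (Human Genome U133 Plus 2.0) whose probe sets measure the transcripts, and the values are log2 signals. Separate cultures for the 3 samples of each condition are stated neither in the labels nor in the methods, so every p-value measures only the spread between these samples, which may be technical.

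The genes were chosen by name, from textbook members of the response to low oxygen and of the glycolytic pathway. Earlier results of these data were known when the list was made. A probe set was used when it was annotated to exactly 1 gene symbol, and the probe set with the highest mean over the 6 arrays stands for the gene. Of the 45 genes, 43 were measured in this way among 19775 genes on the array, and CA9 and SLC16A3 were not analysed here. Olfactory receptor genes, which liver tumor cells should not express, gave a background level of 5.98 on the log2 scale, the 95th percentile over the means of their 107 probe sets. Of the 43 members, 38 lay above it, as did 11550 of all 19775 genes. EGLN2, EGLN3, SLC2A2, SLC2A3 and PKLR did not, with mean log2 signals between 0.90 and 4.11. No filter was applied for these dim members in the tests.

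When oxygen is sufficient, prolyl hydroxylases mark the alpha subunits of hypoxia-inducible factor (HIF) for capture by VHL and for degradation. When oxygen falls, HIF1A or EPAS1 protein accumulates, pairs with ARNT, binds short promoter motifs and raises the transcription of glucose transporters, glycolytic enzymes and genes for vessel growth, acid export and mitochondrial turnover. Many HCC cells depend on glycolysis even when oxygen is present, and stress signals other than low oxygen can raise some of the same targets. Arrays of bulk RNA measure transcripts and not HIF protein, and fewer cells that express a gene cannot be told apart from less RNA per cell.

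Markers of the labelled cell type were present in part. Of 9 measured hepatic markers 6 and of 4 epithelial markers 3 had a mean above the background level, among them AFP (8.996), APOH (11.56), KRT8 (13.96) and KRT18 (15.02). By their means, ALB (6.55) lay just above it, and APOA1 (4.12), APOA2 (3.66), SERPINA1 (5.86) and EPCAM (5.71) did not reach it. On control array 1 and POSTN array 1, however, ALB gave 7.75 and 7.83 and SERPINA1 7.79 and 7.82. The other 4 arrays gave 5.65 to 6.13 for ALB and 4.14 to 5.85 for SERPINA1. Markers of other cell types also had means above it, 3 of 8 stellate or fibroblast, 2 of 5 leukocyte and 2 of 4 endothelial markers. These were LUM (11.17), DCN (9.26), COL1A1 (8.22), ITGAM (8.12), CD3E (6.19), PECAM1 (10.10) and KDR (6.83). All 6 arrays had the same trimmed mean signal of 500, medians of 5.80 to 5.95, and 47.67 to 49.68% of their probe sets above the background level. The labels number the samples of both conditions 1, 2 and 3, and the control and POSTN arrays numbered 1 stood apart from the other 4 arrays. What a number stands for is not given in the sources used here. Results are therefore given for POSTN against control and by replicate number.

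POSTN against control gave no called member. With limma and Benjamini-Hochberg adjustment over 54613 probe sets, 0 of 43 members, and 0% of all probe sets, had an adjusted p under 0.05. The differences were small for most members above the background level. Of the 43, 12 were higher and 31 lower with POSTN, and the median log2 difference was -0.054, against 0.00015 over all genes and -0.0078 over genes above the background level. In the 17 glycolytic enzymes 4 were higher and 13 lower (median -0.074), and in the 12 hypoxia targets outside glycolysis 2 were higher and 10 lower (median -0.044). Those 12 are a group of the list and leave out HIF targets grouped under other roles, such as PDK1 and EGLN1. The split of the 43 members rested on single arrays, since 22 members were higher and 21 lower without control replicate 1, and 21 higher and 22 lower without POSTN replicate 2. At an unadjusted p under 0.05, 0 members were higher and 1 lower, where 1.39% of all genes were higher and 1.1% lower.

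**Figure D1:**
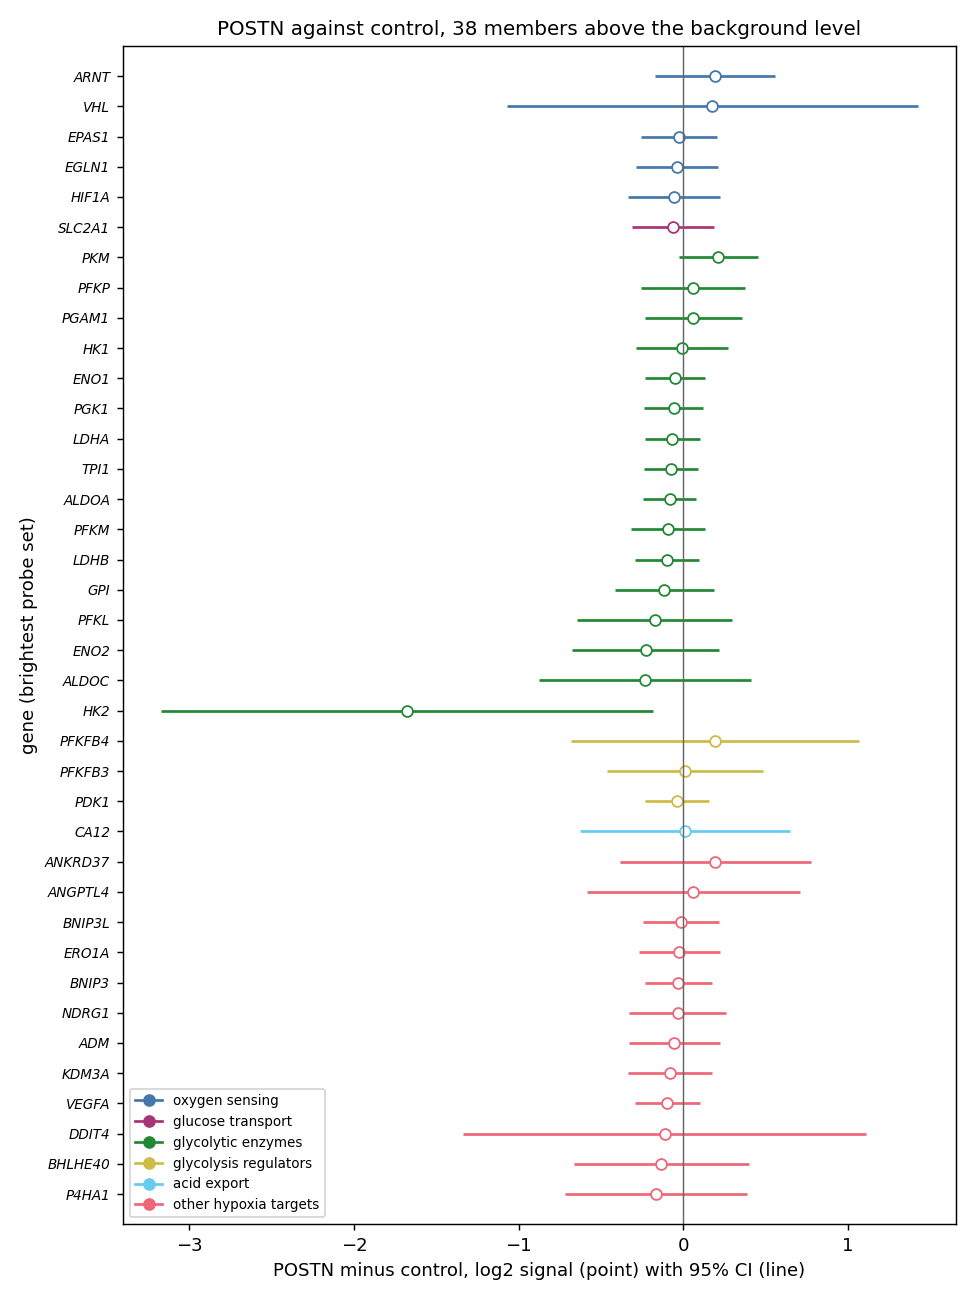
POSTN minus control for the 38 members above the background level, in log2 signal (points) with the 95% confidence interval of limma (lines, 3 arrays per condition), ordered and coloured by role. Every interval except that of HK2 (-3.17 to -0.19) includes 0, and no member had an adjusted p under 0.05.

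HK2, the hexokinase that tumor cells induce to trap glucose, was the member below an unadjusted p of 0.05 in limma. In HK2 (202934_at), control arrays 1, 2 and 3 gave 7.09, 6.89 and 6.52, and the POSTN arrays 5.20, 6.63 and 3.64. All 3 control arrays lay above the background level and 2 of the 3 POSTN arrays below it, so the difference joins a weak signal to one in the background range. The difference was -1.68 (standard error 0.67, unadjusted p = 0.0312), and the second probe set of the gene, itself in the background range, gave -1.55. With the replicate number as a block, where it is not settled that the numbers pair the samples, 4 members in place of 1 had an unadjusted p under 0.05 and none an adjusted p under 0.966. PKM was higher (0.21), where 2.38% of all genes were, and HK2 (-1.68), ENO2 (-0.23) and BHLHE40 (-0.13) were lower, where 2.38% of all genes were. The methods' t-test with its fold threshold took 0 of the 43 members and 1 of their 100 probe sets, against 2.09% of all probe sets.

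In 5 of the 43 members the control and POSTN values did not overlap, against 7.13% of all genes. EGLN3, a prolyl hydroxylase, and SLC2A2, the hepatocyte glucose transporter, were 2 of them and lay in the background range, with differences of -2.12 and 0.89. ALDOA and TPI1, which split fructose bisphosphate and interconvert its products, were lower by small amounts (-0.082 and -0.074). PKM, the pyruvate kinase of proliferating cells, was the highest difference among members above the background level. Signals of PKM (201251_at) were 10.44, 10.40 and 10.37 in controls 1, 2 and 3 and 10.46, 10.77 and 10.62 in the POSTN samples. The 3 POSTN values lay above the 3 control values, by 0.21 (standard error 0.11), an interval of -0.027 to 0.46.

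The other members at the ends of the POSTN ranking had wide intervals in the fit without the replicate number. Among the highest were ANKRD37 (0.20, 95% CI -0.38 to 0.77), PFKFB4 (0.19, -0.68 to 1.07), ARNT (0.19, -0.17 to 0.56) and VHL (0.18, -1.07 to 1.42). Among the lowest were ALDOC (-0.23, -0.88 to 0.41), ENO2 (-0.23, -0.67 to 0.22), PFKL (-0.17, -0.64 to 0.29) and P4HA1 (-0.17, -0.72 to 0.39). With the number as a block, which is not settled as a pairing, their standard errors were smaller. For P4HA1 it was 0.079 in place of 0.25, and for VHL 0.22 in place of 0.56. For the abundant enzymes the intervals were narrow, so that larger shifts of signal lay outside them. Whether such bright probe sets (mean log2 signals of 14.98 for PGK1, 14.98 for LDHA and 14.59 for ENO1) respond in proportion to RNA was not tested. PGK1 differed by -0.057 (95% CI -0.24 to 0.12), LDHA by -0.066 (-0.23 to 0.10) and ENO1 by -0.051 (-0.23 to 0.13). HIF1A differed by -0.055 (-0.33 to 0.22), EPAS1 by -0.026 (-0.26 to 0.21), SLC2A1 by -0.063 (-0.31 to 0.19), PDK1 by -0.035 (-0.23 to 0.16) and VEGFA by -0.097 (-0.29 to 0.099). These intervals belong to these 6 samples and to transcript level only.

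The arrays differed in these genes by replicate number. A fit with condition and number was used. In its limma F-test for any difference among numbers 1, 2 and 3, 15 of 43 members had an adjusted p under 0.05. So had 6.64% of all genes, and 1306 of 11550 genes above the background level. The error of this fit was the scatter left after condition and number, with control and POSTN arrays of a number counted as repeats. Its p-values therefore do not measure the spread between numbers. The contrast of number 1 with numbers 2 and 3, which was chosen with earlier results of these data known, called 15 members higher in number 1, where 5.08% of all genes were called higher, and 3 lower, where 4.73% were. Of these 18 members, the F-test did not call ANKRD37 (adjusted p = 0.0523), KDM3A (0.109), EPAS1 (0.113) and EGLN1 (0.116). All 18 were among the 38 members above the background level, a class of which 8.64% were called higher and 7.95% lower over all genes. These calls relied on letting the prior variance vary with signal strength, because without that trend limma called 0 probe sets and 0 members (lowest adjusted p = 0.377), with 10 of the 18 members still below an unadjusted p of 0.05. With both the trend and the dim probe sets left out, a setting added after seeing the data, 2 members were called, DDIT4 and VHL. The directions below do not change with the variance, and the values of each array are given so that they can be read directly.

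**Figure D2:**
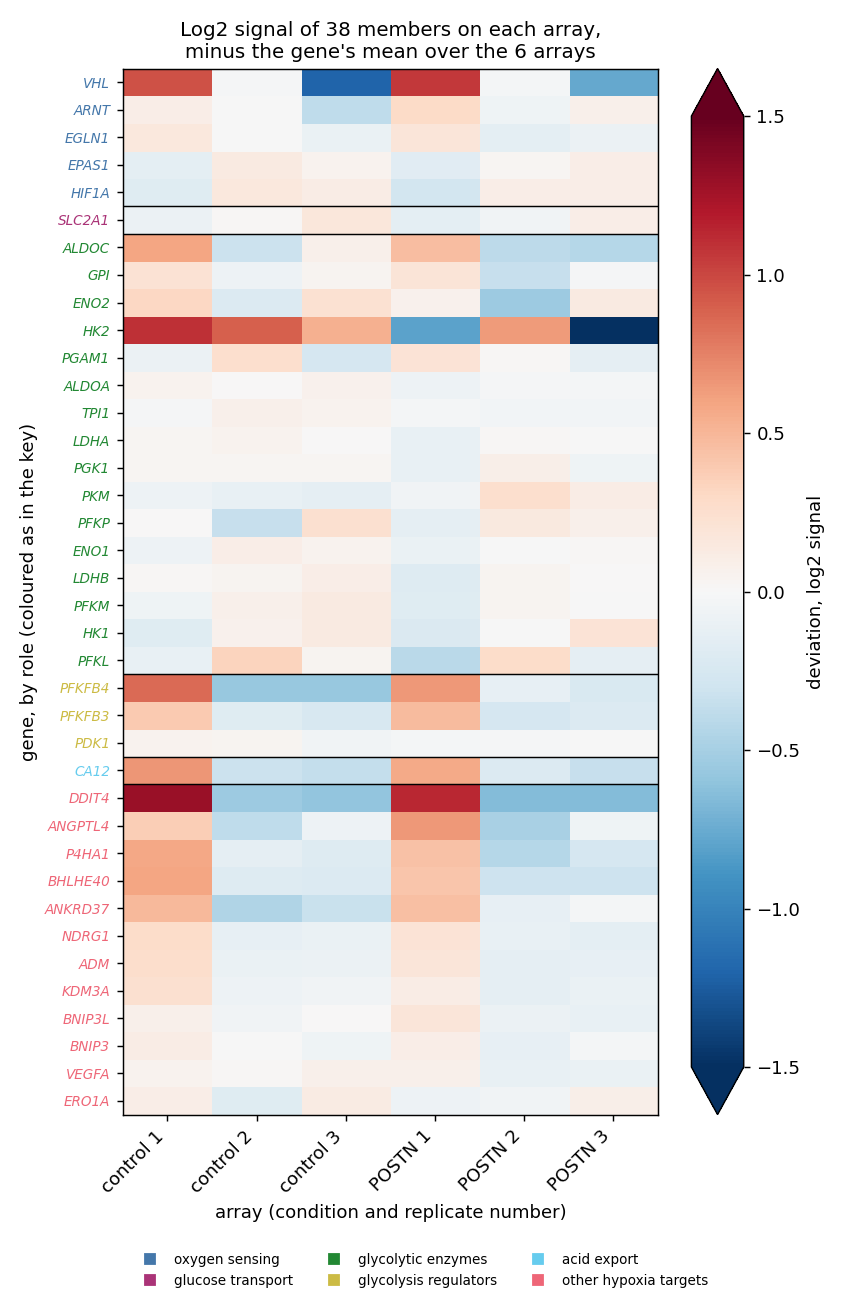
Log2 signal of the 38 members above the background level on each of the 6 arrays, as the deviation from the gene's own mean (colour, limited at 1.5 in either direction), with genes grouped by role. The columns of control 1 and POSTN 1 are above the mean for every member grouped as a hypoxia target outside glycolysis, except ERO1A on POSTN 1. The rows of most glycolytic enzymes stay near 0.

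The 12 members grouped as hypoxia targets outside glycolysis were all higher in number 1 than in the mean of numbers 2 and 3. Their median was 0.35, against -0.0018 over all genes. This contrast called 8 of them, and the F-test over the replicate numbers called 6. DDIT4 (REDD1), a stress-induced inhibitor of mTORC1, had the largest difference. On the control arrays 1, 2 and 3, DDIT4 (202887_s_at) stood at 12.48, 10.63 and 10.59, and on the POSTN arrays at 12.30, 10.53 and 10.53. Both arrays numbered 1 lay above all 4 others, which differed from each other by little, and number 1 was higher by 1.82 (standard error 0.069, adjusted p = 2.37e-07), a fold change of 3.53. BHLHE40 (DEC1), a transcriptional repressor that HIF induces, followed the same order. BHLHE40 (201170_s_at) gave log2 signals of 12.56, 11.77 and 11.76 in the 3 controls and of 12.38, 11.66 and 11.66 in the 3 POSTN samples, in the order of their numbers. Number 1 was higher by 0.76 (standard error 0.061, adjusted p = 4.09e-05), and the other probe set of the gene gave 1.23.

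P4HA1, a collagen prolyl hydroxylase, and ANGPTL4, a secreted inhibitor of lipoprotein lipase, also separated the numbers. P4HA1 (207543_s_at) read 11.05, 10.34 and 10.28 on control arrays 1, 2 and 3 and 10.91, 10.04 and 10.22 on POSTN arrays 1, 2 and 3. In ANGPTL4 (221009_s_at), control arrays 1, 2 and 3 gave 8.89, 8.13 and 8.44, and the POSTN arrays 9.17, 8.02 and 8.45. The 2 arrays numbered 1 were the highest for both genes, by 0.76 (standard error 0.083, adjusted p = 0.000309) for P4HA1 and 0.77 (standard error 0.15, adjusted p = 0.00974) for ANGPTL4. The other probe set of P4HA1 lay in the background range (mean log2 signal 3.51) and pointed the opposite way (-4.22). ANKRD37, a small ankyrin repeat protein known as a HIF target, showed the pattern at a weaker signal. Signals of ANKRD37 (227337_at) were 8.97, 8.04 and 8.15 in controls 1, 2 and 3 and 8.93, 8.37 and 8.45 in the POSTN samples. Its difference was 0.70 (standard error 0.15, adjusted p = 0.0173). The call of ANKRD37 was lost without control replicate 1 (0.52, adjusted p = 0.287), and that of ANGPTL4 without POSTN replicate 1 (0.60, adjusted p = 0.208).

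Smaller differences in the same direction were called for NDRG1, a stress-responsive differentiation gene, ADM, the vasodilator adrenomedullin, and KDM3A, a histone demethylase. On the control arrays 1, 2 and 3, NDRG1 (200632_s_at) stood at 12.68, 12.27 and 12.30, and on the POSTN arrays at 12.61, 12.29 and 12.25. ADM (202912_at) gave log2 signals of 13.73, 13.36 and 13.38 in the 3 controls and of 13.64, 13.33 and 13.34 in the 3 POSTN samples, in the order of their numbers. KDM3A (212689_s_at) read 11.64, 11.32 and 11.35 on control arrays 1, 2 and 3 and 11.51, 11.27 and 11.29 on POSTN arrays 1, 2 and 3. In each of the 3 genes the lower array of number 1 still exceeded the highest of the other 4. The differences were 0.36 (standard error 0.058, adjusted p = 0.00358) for NDRG1, 0.34 (standard error 0.051, adjusted p = 0.00286) for ADM and 0.26 (standard error 0.066, adjusted p = 0.0386) for KDM3A. KDM3A lost its call in 4 of the 6 fits that left out 1 array.

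The remaining 4 targets were not called. BNIP3 and BNIP3L, mitochondrial receptors for mitophagy, were 0.16 (adjusted p = 0.158) and 0.19 (adjusted p = 0.179) higher in number 1. The mean over all probe sets of a gene above the background level called both, at 0.29 and 0.24. VEGFA, the main angiogenic ligand, and ERO1A, the oxidase that drives disulfide formation, had still smaller values. In VEGFA (210512_s_at), control arrays 1, 2 and 3 gave 11.95, 11.90 and 11.96, and the POSTN arrays 11.96, 11.77 and 11.78. Signals of ERO1A (225750_at) were 11.14, 10.86 and 11.16 in controls 1, 2 and 3 and 10.97, 10.99 and 11.13 in the POSTN samples. Their arrays overlapped between numbers, with differences of 0.098 (standard error 0.066, adjusted p = 0.511) and 0.016 (standard error 0.079, adjusted p = 0.955). The 95% interval of the VEGFA difference ran from -0.047 to 0.24, and that of DDIT4 from 1.67 to 1.97.

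**Figure D3:**
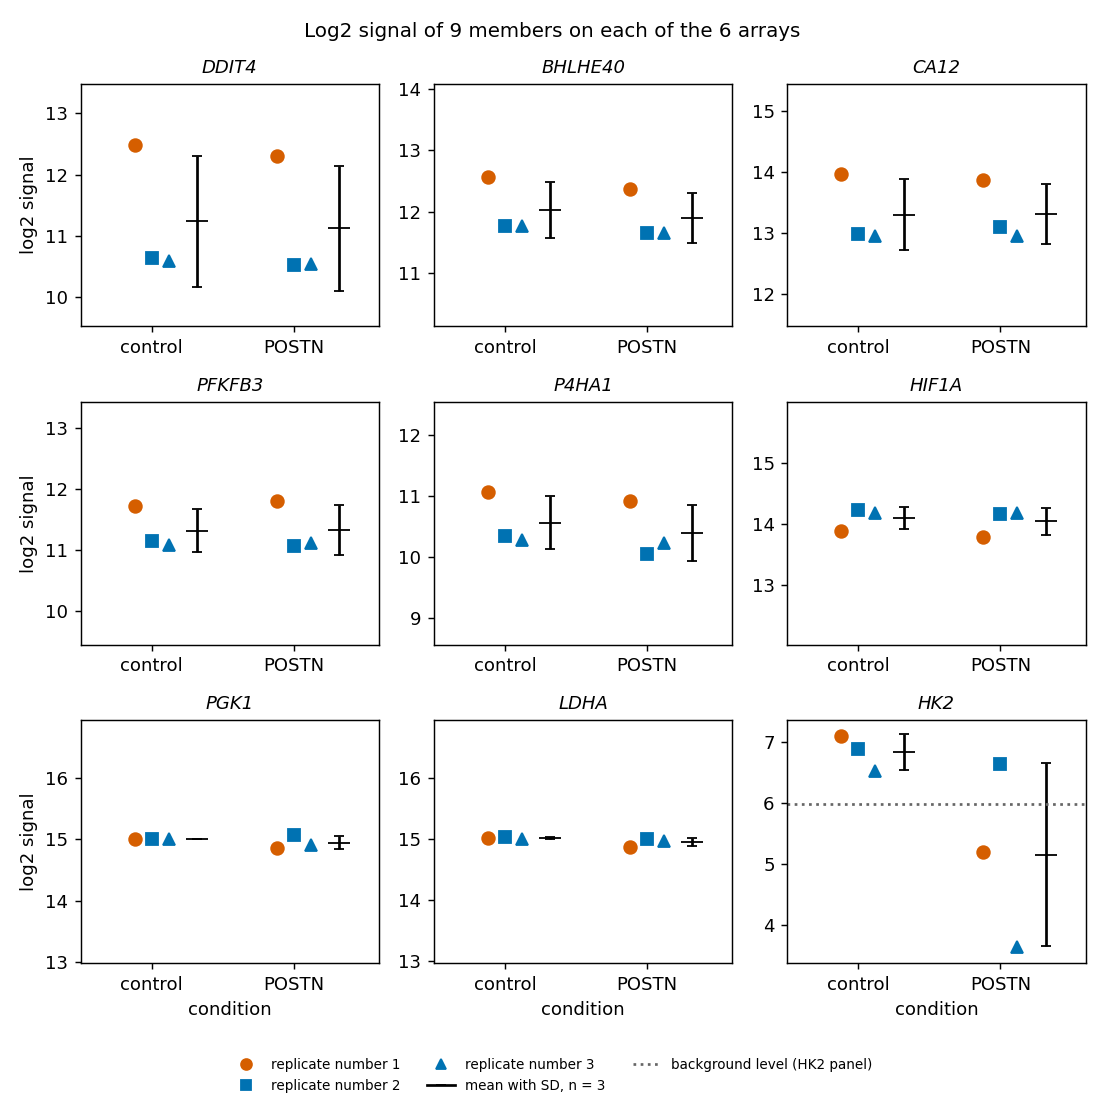
Log2 signal of 9 members on each array, by condition (columns) and replicate number (symbols), with the mean and SD of the 3 arrays of a condition as bars; every panel spans the same number of log2 units. DDIT4, BHLHE40, CA12, PFKFB3 and P4HA1 are higher on both arrays numbered 1 and HIF1A is lower, PGK1 lies between 14.86 and 15.07 on all 6 arrays, and HK2 falls below the background level on 2 POSTN arrays.

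Promoter sequence was set beside these calls. RefSeq windows of 300 bases (250 before to 50 after the start site, GRCh38.p14) were found for 40 of the 45 members, 70 windows in all, and VHL, SLC2A3, VEGFA, NDRG1 and BNIP3L were not in the table used. The core of the HIF-type response element, ACGTG or GCGTG, was searched on both strands, and ACGTG also lies within the E-box CACGTG, which other factors and BHLHE40 itself can bind. At least 1 match stood in 48.4% of all 35116 windows and in 55% of the 21490 windows of genes on the array, so a match is common. Among members it stood in 47 of 70 windows (67.1%). Genes with several start sites weigh more in such a count, and windows of 1 gene share sequence, so the counts below are of genes with a match in at least 1 window. These were 36 of 40 members and 9581 of 15384 genes on the array. By role, 9 of 9 hypoxia targets outside glycolysis and 16 of 17 glycolytic enzymes had a match. By call, 13 of 13 genes called higher in number 1, 3 of 3 called lower and 18 of 22 not called had one. Counted by window these were 15 of 15, 4 of 10 and 24 of 39. Only 3 genes were called lower and a match is common, so these counts cannot tell whether the motif goes with direction. A match is a description of letters and not a binding site. The E-box CACGTG stood in 10 of 70 member windows (14.3%) and in 7.26% of all windows.

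The 250 bases before the start site are shown for DDIT4 (chr10:72273674-72273923, plus strand), BHLHE40 (chr3:4979187-4979436, plus strand), CA12 (chr15:63381847-63382096, minus strand) and P4HA1 (chr10:73096867-73097116, minus strand), the called members with a single window and the lowest adjusted p-values, and for PGK1 (chrX:78103998-78104247, plus strand), a classical HIF target that was not called. Each runs 5′ to 3′ on the strand of its gene, and capitals mark the matches, CACGT and CACGC being ACGTG and GCGTG on the opposite strand.
DDIT4: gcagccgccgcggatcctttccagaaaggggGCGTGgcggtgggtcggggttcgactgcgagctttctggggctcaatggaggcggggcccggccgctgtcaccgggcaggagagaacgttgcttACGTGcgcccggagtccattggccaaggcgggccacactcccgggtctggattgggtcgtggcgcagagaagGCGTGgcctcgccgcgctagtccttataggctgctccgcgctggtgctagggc
BHLHE40: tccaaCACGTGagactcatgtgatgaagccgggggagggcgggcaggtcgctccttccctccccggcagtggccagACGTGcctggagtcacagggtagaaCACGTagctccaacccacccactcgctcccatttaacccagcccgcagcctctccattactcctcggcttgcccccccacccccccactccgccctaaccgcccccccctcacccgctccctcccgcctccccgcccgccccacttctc
CA12: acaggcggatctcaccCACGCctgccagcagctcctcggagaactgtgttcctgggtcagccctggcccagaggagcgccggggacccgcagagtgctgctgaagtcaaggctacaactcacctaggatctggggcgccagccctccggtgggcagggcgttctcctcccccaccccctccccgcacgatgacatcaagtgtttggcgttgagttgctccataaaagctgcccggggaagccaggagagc
P4HA1: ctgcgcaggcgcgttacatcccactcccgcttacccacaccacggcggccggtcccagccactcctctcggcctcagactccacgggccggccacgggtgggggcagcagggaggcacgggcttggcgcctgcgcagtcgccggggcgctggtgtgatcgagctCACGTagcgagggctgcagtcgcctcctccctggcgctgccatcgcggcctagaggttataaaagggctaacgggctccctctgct
PGK1: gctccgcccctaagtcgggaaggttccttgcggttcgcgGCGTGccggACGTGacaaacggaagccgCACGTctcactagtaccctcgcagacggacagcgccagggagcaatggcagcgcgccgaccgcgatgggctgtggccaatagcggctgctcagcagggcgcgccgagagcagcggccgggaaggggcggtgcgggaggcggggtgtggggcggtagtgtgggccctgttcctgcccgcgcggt
The windows of DDIT4 and PGK1 hold 3 matches each before the start site, that of BHLHE40 4, and those of CA12 and P4HA1 1 each. PGK1, which was not called, thus holds as many as DDIT4 in this stretch.

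The genes that sense oxygen moved in both directions with the replicate number. HIF1A, the alpha subunit that is controlled mainly at the protein level, was lower in number 1. On the control arrays 1, 2 and 3, HIF1A (200989_at) stood at 13.89, 14.23 and 14.18, and on the POSTN arrays at 13.79, 14.17 and 14.17. Both arrays numbered 1 lay below the other 4, with a difference of -0.34 (standard error 0.05, adjusted p = 0.00219), a ratio of 0.788. EPAS1 (HIF2A), the other main alpha subunit, was lower too. EPAS1 (200878_at) gave log2 signals of 12.49, 12.76 and 12.68 in the 3 controls and of 12.46, 12.66 and 12.73 in the 3 POSTN samples, in the order of their numbers. Its difference of -0.23 (standard error 0.059, adjusted p = 0.04) lost the call in 5 of the 6 fits that left out 1 array, and after quantile normalization (-0.19, adjusted p = 0.0986), median centring (adjusted p = 0.0913), addition of 50 to the signal (adjusted p = 0.0629) and averaging over probe sets (adjusted p = 0.155).

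VHL, the recognition subunit of the ligase that removes HIF alpha, and EGLN1 (PHD2), the main oxygen-sensing hydroxylase and itself a HIF target, were called higher. VHL (1559227_s_at) read 8.28, 7.31 and 6.13 on control arrays 1, 2 and 3 and 8.39, 7.30 and 6.56 on POSTN arrays 1, 2 and 3. In EGLN1 (223046_at), control arrays 1, 2 and 3 gave 12.18, 12.02 and 11.92, and the POSTN arrays 12.20, 11.88 and 11.94. For VHL, the probe set is weak and numbers 2 and 3 also lay apart, at 0.97 (adjusted p = 0.789), and without control replicate 1 the call was lost (1.46, adjusted p = 0.0605). The other probe set of VHL, in the background range, gave 0.47 (adjusted p = 0.913 in the fit without probe sets named _x_at or _s_at). The differences were 1.51 (standard error 0.23, adjusted p = 0.00298) for VHL and 0.25 (standard error 0.064, adjusted p = 0.0413) for EGLN1. EGLN1 lost its call in 5 of the 6 fits that left out 1 array, after median centring (adjusted p = 0.0578) and with 50 added to the signal (adjusted p = 0.0623). ARNT, the constant partner of both alpha subunits, was not called. Signals of ARNT (218221_at) were 9.22, 9.11 and 8.74 in controls 1, 2 and 3 and 9.40, 9.05 and 9.20 in the POSTN samples. Number 1 differed by 0.28 (standard error 0.13, adjusted p = 0.287), and EGLN2 and EGLN3 lay in the background range on every array.

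Of 3 regulators of glycolytic flux 2 were called higher in number 1, as was the 1 measured gene of acid export, against 2 of the 17 glycolytic enzymes, and the difference between these shares was not tested. PFKFB3 and PFKFB4 make and break down the sugar bisphosphate that activates phosphofructokinase. On the control arrays 1, 2 and 3, PFKFB3 (202464_s_at) stood at 11.72, 11.15 and 11.09, and on the POSTN arrays at 11.80, 11.07 and 11.12. PFKFB4 (228499_at) gave log2 signals of 8.53, 7.12 and 7.11 in the 3 controls and of 8.33, 7.56 and 7.45 in the 3 POSTN samples, in the order of their numbers. Both were higher on the arrays numbered 1 than on every other array, by 0.65 (standard error 0.069, adjusted p = 0.000242) and 1.12 (standard error 0.21, adjusted p = 0.00949), and without control replicate 1 the PFKFB4 call was lost (0.82, adjusted p = 0.234). PDK1, the kinase that keeps pyruvate out of the mitochondria and a standard HIF1 target, did not follow them. PDK1 (226452_at) read 11.22, 11.21 and 11.12 on control arrays 1, 2 and 3 and 11.14, 11.16 and 11.16 on POSTN arrays 1, 2 and 3. Its difference was 0.02 (standard error 0.07, adjusted p = 0.931), with a 95% interval of -0.13 to 0.17. CA12, a membrane carbonic anhydrase that helps to remove acid, was called. In CA12 (214164_x_at), control arrays 1, 2 and 3 gave 13.97, 12.99 and 12.95, and the POSTN arrays 13.88, 13.11 and 12.96. The 2 arrays numbered 1 were the highest, by 0.92 (standard error 0.059, adjusted p = 8.78e-06). The 5 probe sets of CA12 that were called gave differences from 0.92 to 1.35.

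The 17 glycolytic enzymes had a median difference of -0.064 for number 1, with 5 higher and 12 lower. Of these, 2 were called higher and 1 lower. ALDOC, the aldolase of brain that HIF can induce, and GPI, which converts glucose phosphate to fructose phosphate, were higher. Signals of ALDOC (202022_at) were 9.00, 8.08 and 8.48 in controls 1, 2 and 3 and 8.87, 8.02 and 7.98 in the POSTN samples. On the control arrays 1, 2 and 3, GPI (208308_s_at) stood at 12.88, 12.59 and 12.70, and on the POSTN arrays at 12.86, 12.32 and 12.65. The arrays numbered 1 were the highest for both, by 0.79 (standard error 0.15, adjusted p = 0.0112) and 0.30 (standard error 0.065, adjusted p = 0.0188), but the ALDOC call was lost without either array numbered 1, and that of GPI without POSTN replicate 1 or control replicate 3, without both arrays numbered 2 (0.19, adjusted p = 0.0721) and in the fit with 1 term for number 1 (0.30, adjusted p = 0.0746). HK1, the constitutive hexokinase, was lower. HK1 (200697_at) gave log2 signals of 11.67, 11.91 and 11.98 in the 3 controls and of 11.64, 11.84 and 12.06 in the 3 POSTN samples, in the order of their numbers. It differed by -0.30 (standard error 0.064, adjusted p = 0.0185), and the call was lost without either array numbered 1 and without POSTN replicate 3.

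The other 14 enzymes were not called in this contrast. PGK1, which makes the first ATP of the pathway, and LDHA, which turns pyruvate into lactate, are often used as readouts of HIF1. PGK1 (200738_s_at) read 15.01, 15.00 and 15.01 on control arrays 1, 2 and 3 and 14.86, 15.07 and 14.91 on POSTN arrays 1, 2 and 3. In LDHA (200650_s_at), control arrays 1, 2 and 3 gave 15.01, 15.04 and 14.99, and the POSTN arrays 14.88, 15.00 and 14.97. Neither of these bright probe sets separated the numbers, with differences of -0.064 (standard error 0.054, adjusted p = 0.626) and -0.056 (standard error 0.049, adjusted p = 0.634). Of the 4 other probe sets of PGK1 above the background level, 1 was called higher (0.23, adjusted p = 0.0443), so the probe sets of this gene did not read alike. SLC2A1 (GLUT1), the basal glucose transporter, was somewhat lower in number 1 and not called. Signals of SLC2A1 (201250_s_at) were 10.48, 10.59 and 10.74 in controls 1, 2 and 3 and 10.43, 10.52 and 10.68 in the POSTN samples. The difference was -0.18 (standard error 0.076, adjusted p = 0.246).

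ENO2, the neuronal enolase, PGAM1, a phosphoglycerate mutase, and the phosphofructokinases PFKP and PFKL were not called for number 1 against numbers 2 and 3. They were among such enzymes with the highest or lowest differences between numbers 2 and 3. The F-test over the replicate numbers did call ENO2 (adjusted p = 0.0241). On the control arrays 1, 2 and 3, ENO2 (201313_at) stood at 9.98, 9.46 and 9.89, and on the POSTN arrays at 9.72, 9.12 and 9.80. PGAM1 (200886_s_at) gave log2 signals of 13.62, 13.97 and 13.46 in the 3 controls and of 13.93, 13.74 and 13.58 in the 3 POSTN samples, in the order of their numbers. Both arrays numbered 2 were the lowest for ENO2, and both numbered 3 for PGAM1. PFKP (201037_at) read 12.69, 12.34 and 12.93 on control arrays 1, 2 and 3 and 12.55, 12.83 and 12.76 on POSTN arrays 1, 2 and 3. In PFKL (211065_x_at), control arrays 1, 2 and 3 gave 8.29, 8.74 and 8.45, and the POSTN arrays 8.00, 8.69 and 8.27. For number 1 against numbers 2 and 3 the differences were -0.39 (standard error 0.15, adjusted p = 0.172) for PFKL, -0.092 (standard error 0.11, adjusted p = 0.758) for PFKP, 0.28 (standard error 0.10, adjusted p = 0.145) for ENO2 and 0.23 (standard error 0.56, adjusted p = 0.899) for HK2.

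**Figure D4:**
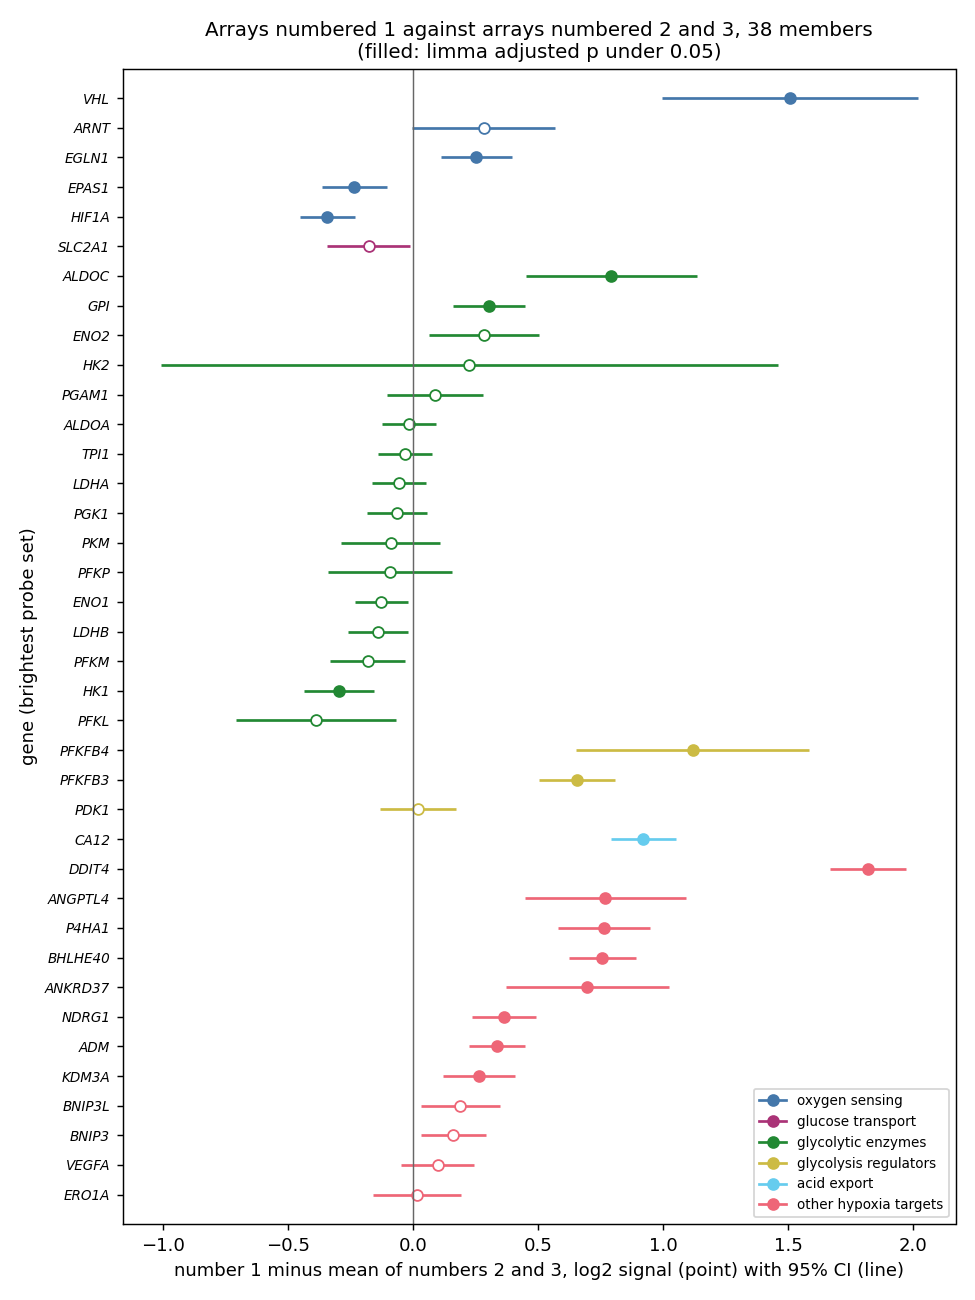
Arrays numbered 1 minus the mean of numbers 2 and 3, in log2 signal (points, filled where the limma adjusted p was under 0.05) with the 95% confidence interval (lines, 6 arrays) for the 38 members above the background level, ordered and coloured by role. All 12 members grouped as hypoxia targets outside glycolysis lie right of 0, from 0.016 (ERO1A) to 1.82 (DDIT4). Of the 16 glycolytic enzymes shown, 12 lie between -0.18 and 0.28.

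Numbers 2 and 3 were then compared with each other. With limma, 0 of 43 members and 0% of all genes were called (lowest adjusted p among members = 0.789), and the median difference was -0.011. At an unadjusted p under 0.05, 3 members were higher in number 2 (VHL, HK2 and PGAM1), where 2.77% of all genes were, and 3 lower (GPI, ENO2 and ERO1A), where 3.39% were. The largest differences among members with a mean above the background level were 1.68 for HK2, 0.97 for VHL, 0.35 for PFKL, 0.33 for PGAM1 and 0.11 for ARNT in number 2, and -0.55 for ENO2, -0.36 for ANGPTL4, -0.26 for PFKP, -0.22 for GPI and -0.22 for ERO1A. The mean of HK2 (5.99) barely passed that level, and its POSTN array 3 (3.64) lay below it. Control arrays 2 and 3 gave 6.89 and 6.52 for HK2. For DDIT4 the difference between numbers 2 and 3 was 0.017, for BHLHE40 0.0052 and for HIF1A 0.023.

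Agreement among probe sets of 1 gene differed between the comparisons. The members had 100 probe sets, of which 74 lay above the background level, and 19 members had more than 1 of these. Of the 36 that were not the brightest, 28 had the sign of the brightest for number 1 and 20 for POSTN. Of the 10 that belong to the 18 called members, all had the sign of the brightest and 7 were themselves called.

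A wider list of 71 genes of these pathways, which holds no member, was set beside them, of which 66 were measured. For POSTN 0 of the 66 were called, and 1 had an unadjusted p under 0.05. For number 1, 11 of the 66 were called higher and 6 lower, beside the 5.08% and 4.73% of all genes, or 8.64% and 7.95% of genes above the background level, where 54 of the 66 lay. The share called lower was thus near that of genes above the background level. Of 25 further HIF targets 9 were called higher and 4 lower (median 0.26), of 10 other genes of oxygen sensing 1 higher, of 11 genes of pyruvate use 1 higher and 1 lower, of 14 other glycolytic and gluconeogenic enzymes 1 lower, and of 6 genes of the pentose phosphate branch 0. The largest rises were in AK4, a mitochondrial adenylate kinase (1.81, adjusted p = 0.00778), TMEM45A, a membrane protein (1.46, adjusted p = 0.00528), and EFNA1, an ephrin ligand (1.36, adjusted p = 0.00127). The largest falls were in STC2, a secreted glycoprotein (-0.90, adjusted p = 0.000121), P4HA2, the sister enzyme of P4HA1 (-0.58, adjusted p = 0.00344), and PDP1, the phosphatase that reverses the action of PDK1 (-0.45, adjusted p = 0.00126). P4HA2 thus fell where P4HA1 rose.

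Genes outside these pathways moved with the same replicate number. Of 9 measured hepatic markers, 5 were called higher in number 1 (ALB, APOH, SERPINA1, FGB and TF). AFP (0.12), TTR (-0.44), APOA1 (1.80) and APOA2 (-1.37) were not called. The summed linear signal of the 9, of which APOH was the brightest, was 9460 to 9940 on the arrays numbered 1 and 2840 to 3370 on the other 4. Of 8 stellate or fibroblast markers, DCN was called lower and 0 higher, with summed signals of 2940 to 3430 and 3480 to 3830. Among 4 endothelial markers PECAM1 was called higher, KDR (-0.013) was not called, and VWF and CDH5 lay in the background range. Of 5 leukocyte markers 0 were called. The difference between the 3′ and 5′ probe sets of GAPDH, a sign of RNA integrity, was -0.074 and -0.062 on the arrays numbered 1 and -0.053 to -0.0018 on the others, and that of ACTB overlapped (0.898 and 0.929 against 0.812 to 1.09). The part of these in the result was not tested.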

How the data were processed

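Residual MHCC97H cells (3 control and 3 POSTN samples, grouped by their labels) were read on 6 arrays. The authors processed the scans with MAS 5.0 and the affy package in R, versions not given in the sources used here, and the deposited log2 values are MAS 5.0 signals, since the linear mean without the highest and lowest 2% is 500 on each array. MAS 5.0 subtracts mismatch signal, so dim probe sets vary widely, and the number of arrays limits the precision. The 45 members, the lists and the contrast of replicate number 1 were chosen with earlier results of these data known. Of 54675 probe sets, 62 controls were left out, and 41091 have 1 symbol, 1801 several and 11721 none in the array's annotation. The gene IDs of 41043 of the former matched RefSeq. Tests used limma 3.58.1 in R 4.3.3 (linear models and eBayes, its prior variance trended on mean signal), checked on simulated data, with Benjamini-Hochberg adjustment over 54613 probe sets. POSTN was fitted without covariates, and replicate numbers with condition as a covariate. An adjusted p under 0.05 is a call.

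The sources used here do not say that same-numbered samples are paired, so the replicate block is an alternative. Genes with values in every array are those called, the 5 highest and 5 lowest above background where none was called, and 10 named HIF and glycolysis genes. Alternatives were quantile normalization, median centring, log2(signal + 50), a filter on dim probe sets, dropping those named _x_at or _s_at, no variance trend, the replicate block, the methods' t-test, a single term for number 1, gene means over probe sets and leaving out each array. Leaving out both arrays of a number, and the filter and no trend together, were added after seeing the data. The promoter windows are those of RefSeq, GRCh38.p14.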

Additional observations from a re-analysis of the deposited data

How the results depend on the processing

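For POSTN, 0 members were called under every alternative, which were the replicate block (0), quantile normalization, median centring, log2(signal + 50), the filters, no variance trend, gene means, leaving out each array or both arrays numbered 1, and the methods' t-test. That test called 0 of the 100 probe sets of the members once its p-values were adjusted (Benjamini-Hochberg). The replicate block leaves the differences as they are by construction (median -0.054). Whether the numbers pair the samples is not settled. Same-numbered arrays correlated in their deviations from the condition means (0.529, 0.235 and 0.239 over 25320 probe sets above the background level, each the highest for its arrays), but over all probe sets only at 0.0882, 0.034 and 0.0252, and control 2 with POSTN 3 (0.201) and control 3 with POSTN 2 (0.15) came close, so numbers 2 and 3 were hardly told apart. The member median was -0.017 after quantile normalization and -0.11 after median centring. The median of the glycolytic enzymes was -0.0037 after quantile normalization, -0.13 after median centring and 0.028 without the _x_at and _s_at probe sets, where 26 members were measured and 16 lower. Leaving out 1 array gave 10 to 22 members higher, 21 to 33 lower, and medians of -0.078 to 0.0083 for all members and -0.16 to 0.075 for hypoxia targets outside glycolysis.

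For number 1, the trend of the variance decided the calls. Without it 0 probe sets were called, so 0 members higher, 0 lower, 0 hypoxia targets and 0 by the F-test, and with dim probe sets also left out 222 probe sets, 2 members higher, 0 lower, 1 hypoxia target and 0 by the F-test. Without the _x_at and _s_at probe sets, 1917 probe sets were called in place of 3389, 7 members higher, 2 hypoxia targets and 7 by the F-test, with medians of 0.12 and 0.18 for members and hypoxia targets, and P4HA1 read by its other, dim probe set was reversed at -4.22. Log2(signal + 50) gave 9 members by the F-test and a median of 0.088. Quantile normalization gave medians of 0.20 for members, 0.056 for glycolytic enzymes and 0.41 for hypoxia targets, and gene means 0.23 for members and 0.0026 for glycolytic enzymes. Without both arrays numbered 2 the member median was 0.082, and without both numbered 3 it was 0.13 with 1 member called lower (EPAS1, EGLN1, HK1 and KDM3A lost their calls). Leaving out 1 array gave 1722 to 4496 probe sets, 9 to 16 members higher, 1 to 4 lower, 6 to 8 hypoxia targets and 9 to 19 members by the F-test, member medians of 0.071 to 0.19, enzyme medians of -0.11 to -0.0032, and 0 to 2 members called between numbers 2 and 3. The fewest members called higher came without control replicate 1 and without POSTN replicate 1 (9 and 10). The cause was not tested in any of these. Dim members (EGLN2, EGLN3, SLC2A2, SLC2A3, PKLR and, with POSTN, HK2) cannot be followed at this signal.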
